A study of Homo sapiens with 24 samples.

Results

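The clustered protocadherins are 3 arrays of related genes on chromosome 5 that encode cell surface adhesion proteins. They were taken as the protein-coding genes of GENCODE release 44 (GRCh37 version) whose symbols begin with PCDHA, PCDHB or PCDHG and whose transcription start site (TSS) lies between 140.1 and 140.9 Mb of chromosome 5. The rule gave 53 of 20163 protein-coding genes, of which 15 belong to the alpha, 16 to the beta and 22 to the gamma cluster, all on the plus strand. The rule uses no measured value, though it was set with earlier results of these data known. The alpha TSSs run from PCDHA1 to PCDHAC2 over 180336 bp, the beta TSSs from PCDHB1 to PCDHB15 over 194004 bp and the gamma TSSs from PCDHGA1 to PCDHGC5 over 158567 bp. Each gene was examined in a window of 2001 bp, 1000 bp on either side of its TSS.

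The data are peak lists from chromatin immunoprecipitation and sequencing (ChIP-seq) in PANC-1 cells, an established line from a human pancreatic ductal carcinoma. Cells received a control siRNA and no TGFb (siControl), the control siRNA and TGFb (siControl+TGFb), or an siRNA against PHF13 and TGFb (siPHF13+TGFb). TGFb induces epithelial-mesenchymal transition. The dose was 10 ng/ml over 48 h, and there was no siPHF13 group without it. H3K4me3 marks promoters, H3K27ac marks active promoters and enhancers, and H3K27me3 marks chromatin repressed by Polycomb. Each mark had 2 libraries per group, 18 lists in all, and nothing in the labels says whether libraries of a group came from separate cultures. All differences between groups therefore rest on 2 libraries against 2, whose spread may be technical.

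Protocadherin clusters are known from neurons. In the alpha and gamma clusters each variable exon has its own promoter and is spliced to constant exons that the whole cluster shares, while beta genes are single exons. A neuron uses a small and varied subset of these promoters, and CTCF and cohesin join the chosen promoters to distant enhancers. The C-type genes at the ends of the alpha and gamma clusters are regulated apart from the rest. Many of the promoters carry a conserved element around the letters CGCT, near the TSS.

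Several properties of the lists bear on what follows. The libraries of siPHF13+TGFb replicate 1 had the shortest list of each mark, with 27869 H3K4me3, 6004 H3K27ac and 59573 H3K27me3 peaks. The other lists held 30770 to 39202, 19413 to 36104 and 98211 to 165717 peaks, respectively. The peak names inside the siPHF13+TGFb lists carry the abbreviation that the study uses for its TGFb-treated control, and those inside the siControl+TGFb lists carry one that the sources used here do not explain. Groups were taken from the labels. The direction of any difference between both groups, and of the difference of either from siControl, therefore depends on the labels. The lists hold no read counts, so depth is unknown, and a window without a peak is one where the caller found none. The depletion of PHF13 is at the level of RNA and cannot be read from these lists. As a check of the cell line, 6 epithelial and ductal genes were examined (KRT8, KRT18, KRT19, EPCAM, CDH1 and SOX9). All 6 had an H3K4me3 peak in all 6 lists, against 2 of 6 neuronal genes and 66.7% of coding genes outside the clusters. Of the other neuronal genes, SYN1 had a peak in 5 lists, NEFL in 3, STMN2 in 2 and RBFOX3 in none. The other marks were mixed, since EPCAM had H3K27me3 in 6 lists and CDH1 in 5, both without H3K27ac, and the neuronal gene TUBB3 had H3K27ac in 6.

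Promoter elements of 3 pairs of genes, each from a single cluster and with opposite H3K4me3 state, are shown first. In the following 24-base stretches the 4 capitals mark CGCT. Of each pair the first gene had an H3K4me3 peak in all 6 lists and the second had none. The pairs were picked for their likeness after the sequences were read. They were read from the GRCh37 plus strand, 5′ to 3′.
PCDHA8 (chr5:140220721-140220744): cacatgatgtCGCTgtctaccaag
PCDHA3 (chr5:140180585-140180608): cacatgatgtCGCTgtccaccaca
PCDHB13 (chr5:140593443-140593466): cgcgtggtggCGCTgcaggataag
PCDHB12 (chr5:140588221-140588244): cgcgtggtggCGCTgcaggataat
PCDHGB2 (chr5:140739494-140739517): ctctgagcgtCGCTgttggtcaaa
PCDHGA2 (chr5:140718276-140718299): ctctgagcgtCGCTgttgaccacc
The alpha pair differed at 3 of 24 positions, the beta pair at 1 and the gamma pair at 4. PCDHB8, the gene with H3K27me3 in every list, and its neighbour PCDHB7, without a peak of any mark, are shown over 200 bases, from 150 bases before the TSS.
PCDHB8 (chr5:140557221-140557420): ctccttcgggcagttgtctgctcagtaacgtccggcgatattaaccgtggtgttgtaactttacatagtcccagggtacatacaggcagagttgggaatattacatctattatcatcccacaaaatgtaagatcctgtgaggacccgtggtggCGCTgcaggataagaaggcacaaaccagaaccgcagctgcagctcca
PCDHB7 (chr5:140552075-140552274): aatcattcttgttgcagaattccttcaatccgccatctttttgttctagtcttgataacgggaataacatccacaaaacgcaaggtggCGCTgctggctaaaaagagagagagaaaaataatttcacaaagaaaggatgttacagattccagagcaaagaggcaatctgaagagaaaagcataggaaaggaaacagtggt

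Promoters of 300 bases, 250 before the TSS and 50 from it, were searched on both strands for these letters. CGCT occurred in 51 of 53 cluster promoters (96.2%), in each case also on the strand of the gene, and in 82.1% of 20085 other protein-coding promoters. On the strand of the gene alone it was in 66.1% of the others. The exceptions in the clusters were PCDHA9 and PCDHGC5. Where it occurred once on the strand of the gene (36 promoters), its median position was 51.5 bases before the TSS. The longer GATGTCGCT, which contains CGCT, was in 10 of 15 alpha promoters and 0.0797% of the others. GGTGGCGCT, which also contains it, was in 14 of 16 beta promoters and 0.647% of the others. These longer strings were read off the cluster promoters themselves, so their frequency there is a description. Of the 17 genes with H3K4me3 in all 6 lists, 17 held CGCT, 3 held GATGTCGCT and 6 held GGTGGCGCT. Of the 33 genes without H3K4me3, the numbers were 32, 7 and 7. The letters were thus present in both states, and they say nothing of which factor was bound.

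H3K4me3 was nearly all or none across the clusters, as at the other genes, and 17 promoters carried it in every list of all conditions. A peak was found in all 6 lists at 17 windows (32.1%) and in none at 33 (62.3%), which left 3 windows (5.66%) in between. Of the other protein-coding windows, 66.7% had a peak in 6 lists, 29.1% in none and 4.20% in 1 to 5. The 17 were PCDHA4, PCDHA8, PCDHA12, PCDHA13 and PCDHAC2 in the alpha cluster, PCDHB1, PCDHB2, PCDHB6, PCDHB8, PCDHB9, PCDHB11, PCDHB13 and PCDHB14 in the beta cluster, and PCDHGB1, PCDHGB2, PCDHGB7 and PCDHGC3 in the gamma cluster. The same 17 came out with windows of 500 bp on either side, with lists of equal length, with the 5′ end of the gene record as TSS, with only peaks of a −log10 q of at least 3, and without siPHF13+TGFb replicate 1. The windows in between were PCDHGA1 with 5 lists, and PCDHB10 and PCDHGC5 with 2 each. The shares differed along the locus, with 5 of 15 alpha, 8 of 16 beta and 4 of 22 gamma windows marked in all lists. From PCDHGA5 to PCDHGA10, 10 consecutive gamma windows held no peak of any mark.

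**Figure D1:**
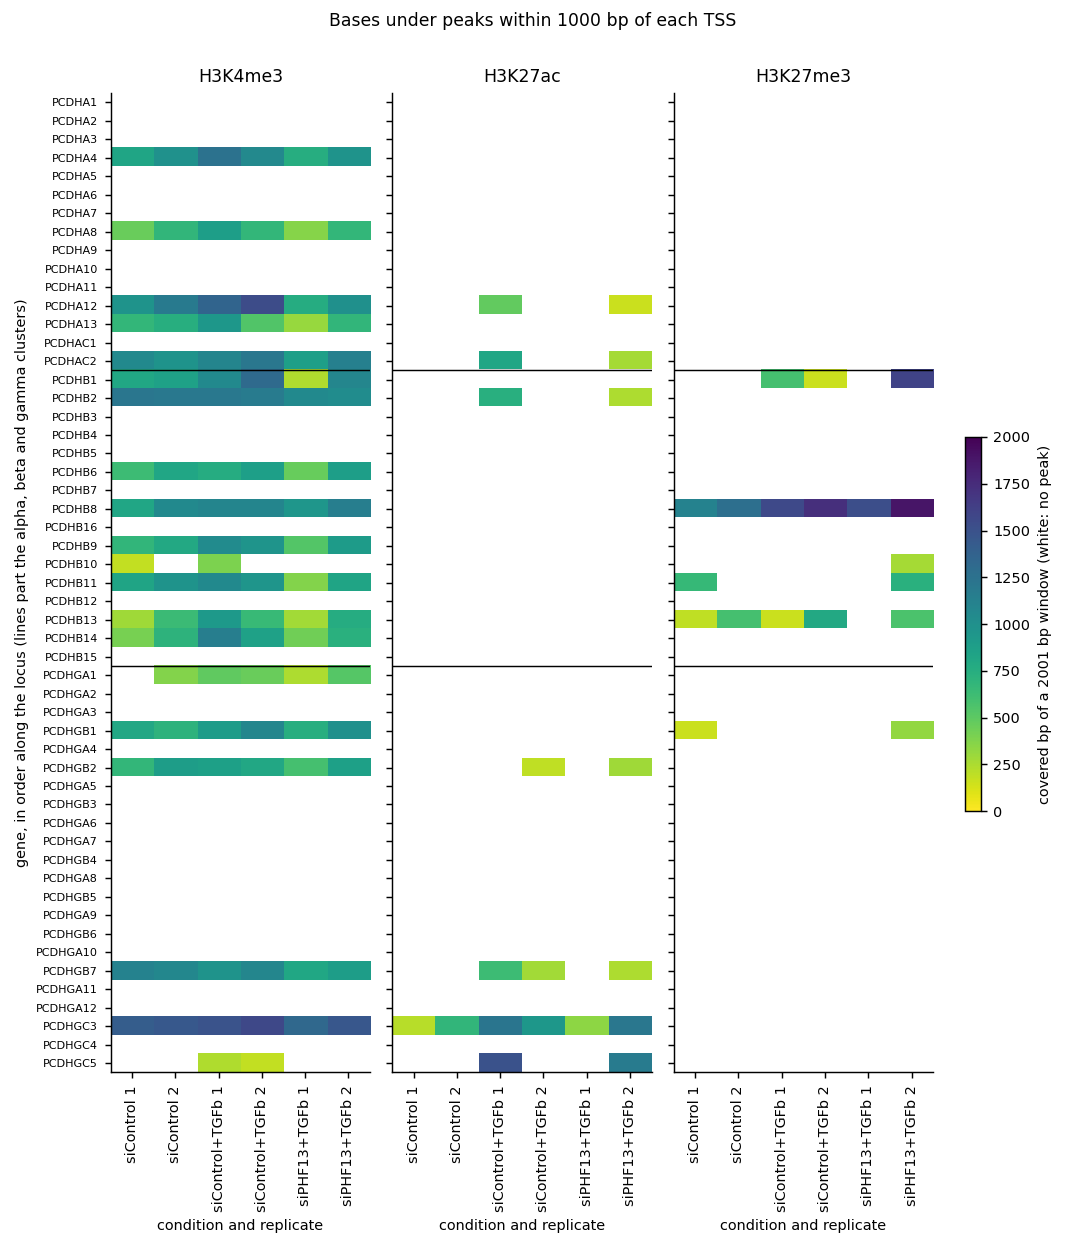
Covered bp (color, 0 to 2001) in the window of each of the 53 genes, in order along the locus, for the 6 libraries of each mark. Rows of H3K4me3 are either filled in all 6 columns (17 genes) or white throughout (33 genes) with 3 exceptions, while H3K27ac and H3K27me3 fill few rows.

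The 33 windows without H3K4me3 also lacked H3K27ac and H3K27me3 in every list. A window without any peak in the 18 lists was thus found for 62.3% of cluster genes and 15.3% of the other genes. Most cluster promoters were therefore outside both the active and the Polycomb-marked class as these lists define them. Among the C-type genes, PCDHAC1 and PCDHGC4 had no peak of any mark, PCDHAC2 and PCDHGC3 had H3K4me3 in 6 lists, and PCDHGC5 in 2.

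In each library a smaller share of cluster windows than of other windows had a peak, for all 3 marks. H3K4me3 was found at 18 and 18 cluster windows in siControl, at 20 and 19 in siControl+TGFb and at 18 and 18 in siPHF13+TGFb, or 34.0% to 37.7%, against 67.3% to 70.3% of the others. The mean difference was -34.2 percentage points (SD 1.29, n = 6 libraries, exact sign-flip permutation test, two-sided p = 0.0313). H3K27ac was found at 1 and 1, 6 and 3, and 1 and 7 windows in the same order, against 18.3% to 57.2% of the others, a mean difference of -40.8 points (SD 12.2, n = 6, exact permutation p = 0.0313). The largest numbers, 6 and 7, belong to the 2 longest H3K27ac lists. H3K27me3 was found at 4 and 2, 3 and 3, and 1 and 6 windows, against 13.0% to 26.8% of the others, a mean difference of -14.9 points (SD 4.99, n = 6, exact permutation p = 0.0313). This p is the smallest that 6 libraries allow, and the tests compare these libraries, not other choices of genes. With lists of equal length the differences were -34.5 (H3K4me3), -20.8 (H3K27ac) and -13.3 points (H3K27me3). The size of the H3K27ac difference thus depended on list length. Without siPHF13+TGFb replicate 1 the differences were -34.3, -45.7 and -15.7 points, where 5 libraries cannot go below an exact permutation p of 0.0625.

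**Figure D2:**
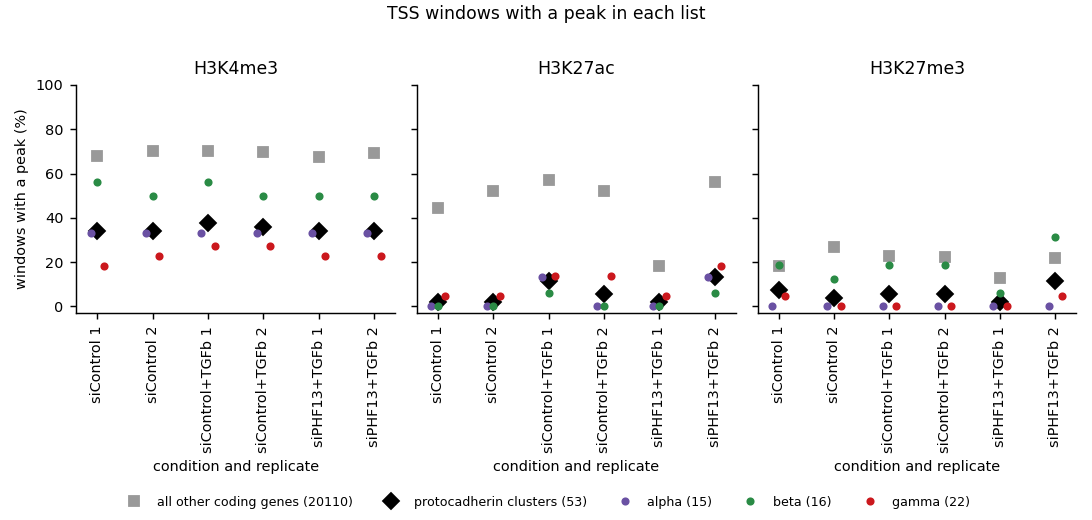
Share of TSS windows with a peak (percent) in each of the 6 lists of a mark, for all 53 cluster genes (black diamonds), each cluster (colored points) and the 20110 other protein-coding genes (grey squares). The black diamonds lie below the grey squares in all 18 lists.

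Most genes that flank the clusters had H3K4me3. Of 32 other protein-coding genes within the locus or 0.5 Mb of it, 27 had an H3K4me3 peak in all 6 lists and 5 in none. The 27 include ENSG00000279983, whose window holds the same H3K4me3 region as that of PCDHB14. PCDH1 and PCDH12 are among the 32 and also among the protocadherins outside the clusters that follow. TAF7, which encodes a subunit of the general transcription factor TFIID and lies between the beta and gamma clusters, had H3K4me3 and H3K27ac in all 6 lists. SLC25A2, a mitochondrial carrier gene in the same gap, had no peak of any mark. Among 11 protocadherins outside the clusters, which have a promoter each and no variable exons, 7 had H3K4me3 in all lists, 1 in some and 3 in none. Of these, PCDH1 and PCDH19 had H3K27me3 in all 6 lists as well, and PCDH10 had no peak of any mark. Also examined were the genes of 14 factors that act on protocadherin promoters or on chromatin there. Among them were CTCF, RAD21, SMCHD1 and the Polycomb gene EZH2. All 14 had H3K4me3 in 6 lists and no H3K27me3 in any. Of all coding windows outside the clusters, 66.7% had H3K4me3 in 6 lists and 70.4% had H3K27me3 in none.

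CpG content overlapped between the H3K4me3 states. Within 500 bp of the TSS, the ratio of observed to expected CpG had a median of 0.609 (0.293 to 0.804) over the 17 marked windows and 0.688 (0.435 to 0.914) over the 33 unmarked ones. The median of the other protein-coding genes was 0.724. In the alpha cluster the medians were 0.742 for marked and 0.784 for unmarked windows, in the beta cluster 0.476 and 0.503, and in the gamma cluster 0.673 and 0.671. GC content likewise overlapped, with medians of 45.1% for marked and 44.4% for unmarked windows, both below the 61.2% of the other genes. The lowest ratios were those of PCDHGC5 (0.193, H3K4me3 in 2 lists), PCDHB9 (0.293, in 6 lists) and PCDHB10 (0.320, in 2 lists).

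**Figure D3:**
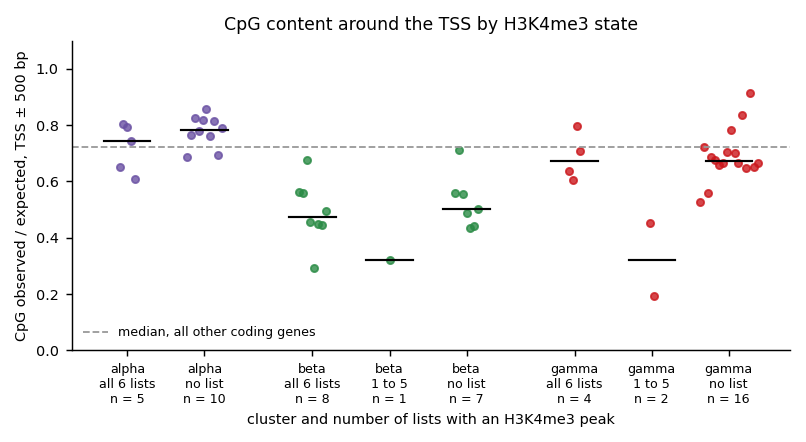
Ratio of observed to expected CpG in 1001 bp around each TSS, by cluster and by the number of lists with an H3K4me3 peak. Points are genes, black lines are medians (0.742 and 0.784 in alpha, 0.476 and 0.503 in beta, 0.673 and 0.671 in gamma for all 6 lists and no list) and the dashed line is the median of the other genes, 0.724.

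Some windows share sequence, which limits how peaks can be placed. Of the 1902 stretches of 100 bases in the PCDHB8 window, 546 (28.7%) were also in the PCDHB13 window, on either strand. PCDHGB4 and PCDHGB5 shared 20.7%, PCDHA7 and PCDHA9 20.3%, and PCDHB9 and PCDHB10 shared 228 stretches. A total of 16 windows, 7 of the 17 marked and 8 of the 33 unmarked, had a stretch of 100 bases found again within the 1 Mb of chromosome 5 that holds the locus. With its default settings Bowtie 2 places a read that matches several sites equally well at 1 of them, so values at these genes are less certain than at the rest. How far this moved a peak was not tested.

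Where present, H3K4me3 at most cluster promoters was narrow and lay mainly inside the gene. The median covered length over the 17 windows was 806 and 886 bp in siControl cells, 1053 and 1061 bp in siControl+TGFb and 587 and 906 bp in siPHF13+TGFb, against 1352 to 1610 bp over 13419 other windows with a peak in all lists. Within the window PCDHGC3, a C-type gamma gene, had the widest H3K4me3, at 1326 to 1564 bp. In siControl+TGFb its peaks ran past the window and covered 1674 and 1723 bp in all. PCDHB13 had the lowest mean of the 17, at 277 to 918 bp. Of the bases covered, 73.0% to 82.6% lay downstream of the TSS, compared with 57.7% to 61.3% at the other genes. PCDHAC2 went the other way, with a mean of 633 bp upstream and 422 bp downstream, and PCDHB1 was nearly even (420 and 471 bp). The second shoulder upstream of the TSS that the other genes show in the average profile was missing at the clusters.

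**Figure D4:**
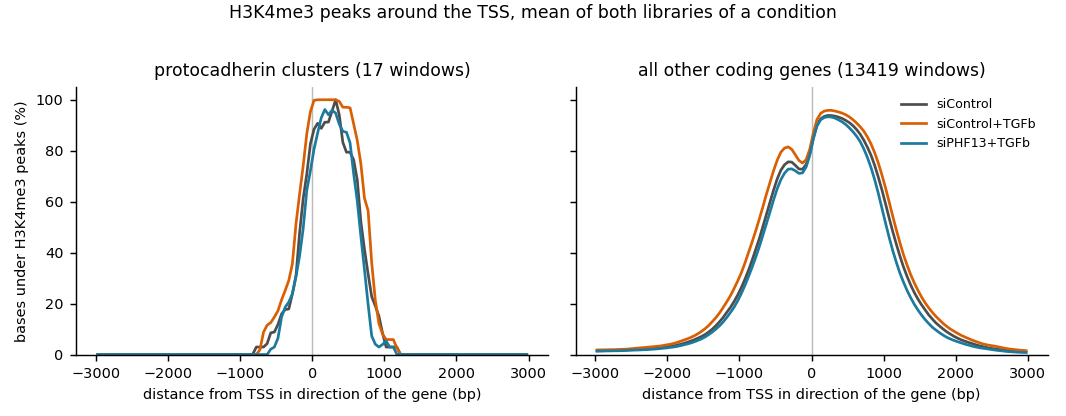
Percent of windows whose bases lie under an H3K4me3 peak, in 50 bp bins up to 3000 bp from the TSS in the direction of the gene, averaged over both libraries of a condition. The 17 cluster windows (left) are covered from under 1000 bp before to a little over 1000 bp after the TSS, and the 13419 other windows (right) more broadly on both sides.

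With TGFb, H3K4me3 at the marked cluster promoters covered more bases on average. PCDHA12 had the largest difference that passed an unadjusted p of 0.05 in limma, with 977 and 1177 bp in siControl cells and 1357 and 1536 bp in siControl+TGFb, so that the groups did not overlap. The difference was 18.5 percentage points of the window (SE 6.45, limma, Benjamini-Hochberg adjusted p = 0.924). PCDHB14 had 410 and 707 bp in siControl cells and 1145 and 858 bp in siControl+TGFb, and PCDHB1 had 806 and 858 bp against 1053 and 1306 bp. In both genes the siControl+TGFb libraries were the higher ones. PCDHB2, one of the widest beta promoters, had 1214 and 1198 bp against 1199 and 1166 bp. PCDHGB7 had 1116 and 1075 bp against 971 and 1085 bp, and these groups overlap.

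Over the 17 windows the median change with TGFb was 158 bp (0.23 on the log2 scale), with the mean higher in 15 and lower in 2. Both siControl+TGFb libraries were above both siControl libraries in 10 of 17 windows (58.8%), while 36.5% of all 13436 windows with a peak in all lists behaved this way. The median change of the other windows was 70.5 bp. Leaving out each library in turn kept the median between 94 and 187.5 bp. Between libraries numbered 1 it was 247 bp and between those numbered 2 it was 59 bp, against 122 and 14 bp at the other windows. The siControl+TGFb lists of H3K4me3 covered 41.1 and 37.4 Mb in all and the siControl lists 29.3 and 36.9 Mb. Covered length per window was not recomputed with lists of equal length. It also cannot exceed the 2001 bp of the window. In siControl cells its median was 1460 and 1555 bp at the other windows and 806 and 886 bp at the 17. The other windows thus had less room to widen. The limma fit over 14113 windows, with Benjamini-Hochberg adjustment, called 0 of 20 cluster windows and 0% of all. At an unadjusted p under 0.05, 2 of 20 cluster windows were higher (PCDHA12 and PCDHGC5) and none lower, against 4.08% of all windows higher.

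In siPHF13+TGFb cells H3K4me3 covered fewer bases than in siControl+TGFb cells at the same promoters. PCDHA12 had 764 and 1000 bp, below both siControl+TGFb libraries, a difference of -28.2 percentage points (SE 6.45, limma, Benjamini-Hochberg adjusted p = 0.556). PCDHB2 had 1049 and 1031 bp, the most even pair of values, and differed by -7.12 points (SE 2.38, limma, Benjamini-Hochberg adjusted p = 0.556). PCDHB1 had 241 and 1084 bp, and PCDHB11 375 and 836 bp. At both genes the lower value is that of replicate 1, whose list was the shortest. PCDHB8 had 953 and 1142 bp against 1089 and 1090 bp, so its groups overlap.

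The mean was lower in 17 of 17 windows, with a median change of -244 bp (-0.42 on the log2 scale). It was -122.5 bp over the other windows, of which 11564 of 13419 were lower. Both siPHF13+TGFb libraries were below both siControl+TGFb libraries in 8 of 17 cluster windows (47.1%), close to the 44.3% of all windows. The size of the change rested on siPHF13+TGFb replicate 1. Without it the median was -93.5 bp, with 13 of 17 windows lower, and -30.5 bp over the others. Without siPHF13+TGFb replicate 2 it was -398.5 bp. The limma fit called 0 of 20 cluster windows and 0% of all. At an unadjusted p under 0.05, 3 cluster windows were lower (PCDHA12, PCDHB2 and PCDHGC5) and none higher, against 8.11% of all windows lower.

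**Figure D5:**
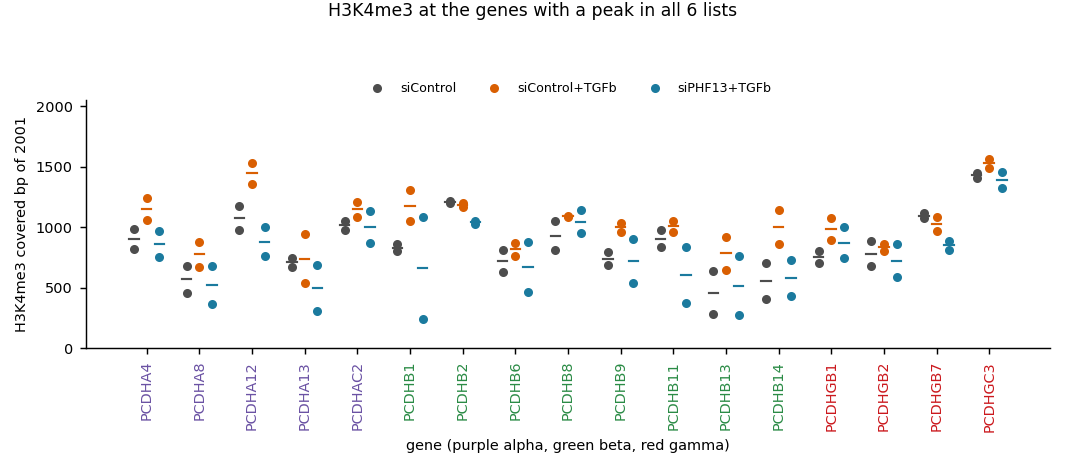
H3K4me3 covered bp at each of the 17 genes with a peak in all 6 lists. Points are libraries, 2 per condition, and short lines are their means. The siPHF13+TGFb mean is below the siControl+TGFb mean at all 17 genes, and 15 genes have a higher siControl+TGFb than siControl mean.

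The number of cluster windows with an H3K4me3 peak was 1.5 higher with TGFb and 1.5 lower in siPHF13+TGFb than in siControl+TGFb (exact permutation p = 0.333 for each, the smallest that 2 libraries against 2 allow). With lists of equal length both directions turned, to -0.5 and 0.5. A window was counted as gained where both libraries of a group had a peak and neither library of the other group did, and as lost in the reverse case. PCDHGC5 was the 1 cluster window gained with TGFb, where 0.193% of all windows were gained, and none was lost (0.00496% of all). It was also the 1 window lost in siPHF13+TGFb (0.441% of all), with none gained (0.0149% of all). Its peaks covered 238 and 182 bp in siControl+TGFb and 0 bp in the other 4 libraries. They did not overlap, since 1 began 169 bp after the TSS and the other lay 820 to 639 bp before it, and the window was neither gained nor lost with windows of 500 bp on either side, lists of equal length or a −log10 q of at least 3.

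H3K27ac was scarce at the cluster promoters that carried H3K4me3. Of the 17 such windows 11 (64.7%) had no H3K27ac peak in any list, compared with 14.8% of the other windows marked by H3K4me3. PCDHGC3 was the only cluster window with H3K27ac in all 6 lists. It had 214 and 687 bp in siControl cells, 1227 and 938 bp in siControl+TGFb and 342 and 1208 bp in siPHF13+TGFb, with both siControl+TGFb values above both siControl values. PCDHGC5 had the largest H3K27ac value of a cluster window, 1499 bp in siControl+TGFb replicate 1. It had 1166 bp in siPHF13+TGFb replicate 2 and 0 bp in the other 4 libraries. In siPHF13+TGFb replicate 2 this window had no H3K4me3 peak.

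The other windows with H3K27ac had it only in siControl+TGFb libraries and in siPHF13+TGFb replicate 2, whose lists were the 3 longest of this mark. In siControl+TGFb replicate 1 and siPHF13+TGFb replicate 2, PCDHA12 had 483 and 160 bp, PCDHAC2 820 and 267 bp, and PCDHB2 742 and 247 bp. PCDHGB7 had 631 and 277 bp in siControl+TGFb and 249 bp in siPHF13+TGFb replicate 2. PCDHGB2 had 194 bp in siControl+TGFb replicate 2 and 288 bp in siPHF13+TGFb replicate 2. No cluster window had H3K27ac in siControl other than PCDHGC3.

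PCDHGB7 was the 1 window gained for H3K27ac with TGFb (1.50% of all windows), and none was lost (0.00496% of all). None was gained (0.00496% of all) or lost (0.228% of all) in siPHF13+TGFb. The number of windows with H3K27ac was 3.5 higher with TGFb (exact permutation p = 0.333) but 0 higher with lists of equal length. In siPHF13+TGFb it was 0.5 lower (exact permutation p = 1), and 2.5 higher without siPHF13+TGFb replicate 1. The limma fits over 11282 windows called 0 of 7 cluster windows in either comparison and 0% of all, and 0 of the 7 passed an unadjusted p of 0.05. Without siPHF13+TGFb replicate 2, where that group is the short replicate 1 list alone and is assumed to vary like the others, 6875 of all windows were called in siPHF13+TGFb and again 0 cluster windows.

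H3K27me3 was found at 6 cluster windows, 5 of them beta genes, and at no alpha window. Each of these windows also had H3K4me3 in some list. No list had H3K27me3 at 88.7% of cluster windows and 70.4% of other windows. Among windows with H3K4me3 in all 6 lists, 5 cluster windows (29.4%) and 20.3% of the others had H3K27me3 in at least 1 list. In this class, 1 cluster window (5.88%) and 10.4% of the others had H3K27me3 in all 6 lists. Differences between these shares were not tested. PCDHB8 had 1110 and 1269 bp in siControl cells, 1563 and 1735 bp in siControl+TGFb and 1523 and 1889 bp in siPHF13+TGFb, so siControl had the lowest values. From 605 to 1142 bp of the PCDHB8 window lay under both H3K4me3 and H3K27me3, which in 5 of the 6 library numbers was the whole H3K4me3 stretch. PCDHB13, which shares sequence with it, had H3K27me3 in 5 lists, with 195 and 591, 161 and 796, and 0 and 566 bp. Within its window PCDHB1 had 0 and 0 bp in siControl cells, 592 and 160 bp in siControl+TGFb and 0 and 1599 bp in siPHF13+TGFb. PCDHB11 and PCDHGB1 had it in 2 lists and PCDHB10 in 1.

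PCDHB1 was the 1 window gained for H3K27me3 with TGFb (0.278% of all windows), and none was lost (0.451% of all). The H3K27me3 region at PCDHB1 ran past the window, to 2464 bp after the TSS. In siControl replicate 2, 867 bp of this region were covered, all outside the window. The mark was thus not absent near PCDHB1 without TGFb. None was gained (0.0694% of all) or lost (1.07% of all) in siPHF13+TGFb. Windows with both H3K4me3 and H3K27me3 numbered 4 and 2 in siControl, 3 and 3 in siControl+TGFb, and 1 and 5 in siPHF13+TGFb (exact permutation p = 1 for both comparisons). The limma fits over 5068 windows called 0 of 5 cluster windows in either comparison and 0% of all, and 0 of the 5 passed an unadjusted p of 0.05. Without siPHF13+TGFb replicate 2, 567 of all windows and 0 cluster windows were called in siPHF13+TGFb. Over the whole cluster spans, H3K27me3 covered 0.636% and 2.33% in siControl, 0.723% and 0.867% in siControl+TGFb, and 0.449% and 1.56% in siPHF13+TGFb, so the groups overlap (exact permutation p = 1 for both). The same lists covered 1.57% to 9.46% of the genome. Beta spans carried most of it, with 1.05% to 5.71% covered.

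Away from the TSS windows, 7 further H3K4me3 regions lay in the locus, and all 7 had peaks in all 6 lists. One of 1409 bp (chr5:140380801-140382209) began 34740 bp downstream of the PCDHAC2 TSS, inside the introns of the alpha transcripts. H3K27ac peaks overlapped it in 4 lists, and 2 more H3K27ac regions followed nearby (chr5:140383173-140383792 and chr5:140384025-140384453), each in 5 lists. A second region (chr5:140419335-140420879) lay 10080 bp before PCDHB1 at the start of a long noncoding RNA and had H3K27ac in 5 lists. Another (chr5:140535219-140536307) lay at the start of the pseudogene PCDHB17P. The TAF7 promoter (chr5:140699226-140701179) was the only one of the 7 with H3K27ac in all 6 lists. Of 24 H3K4me3 regions of the locus found in all 6 lists, 17 were thus at cluster promoters. For H3K27me3, 1 of 27 regions was in all 6 lists, the one at PCDHB8.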

How the data were processed

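The authors trimmed reads with Trim Galore 0.4.1, aligned them to hg19 with Bowtie 2 2.4.1, discarded duplicates (Picard) and used MACS2 2.2.7.1 with input as control, per the methods and the labels. In the deposited lists peaks were called library by library, narrow for H3K4me3 and H3K27ac and broad for H3K27me3. Columns for position and the −log10 q-value, as the authors deposited it, were used, the latter only to rank or filter peaks. Its lowest values for narrow peaks were below the cutoff that the methods state. Score, fold enrichment and −log10 p-value were not used, and the 6 input samples were not analysed here.

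Windows were set on the canonical transcript of each gene (2 members had none marked, and the 5′ end of the gene was used). hg19 has the chromosome sequences of GRCh37, and on 0 of the 24 chromosomes in the lists did a peak end beyond the GRCh37 sequence. A window had a peak if at least 1 bp was covered. Covered length was tested on simulated intervals against a count per base. Percent of the window covered was compared with limma 3.58.1 (R 4.3.3), 3 groups in 1 fit, over windows with a peak in at least 2 lists of the mark. Fits were tested on simulated data. Counts of windows were compared by exact permutation tests. Other steps used Python 3.11.15 and NumPy 2.4.6.

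Alternatives were a window of 500 bp on either side, lists cut to equal length, the gene 5′ end as TSS, a minimum −log10 q of 3, leaving out each library, a replicate block, and for limma log2(bp + 100) and other filters. Members, lists and named genes were chosen with earlier results of these data known. Genes named with values were the C-type genes, PCDHB8, members at the extremes of covered length, members with H3K27ac, and members gained or lost. PCDHB2, PCDHB11, PCDHB14, PCDHB7 and the printed pairs were added after their values were seen. The depth of the libraries is not held in the lists, and the number of lists per group (2) sets the precision.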

Additional observations from a re-analysis of the deposited data

How the results depend on the processing

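Of 267 values recomputed for 32 results, 222 counted as unchanged. They stayed on their side of the test's threshold, within the spread between libraries or, for counts, near the main count. Counts of 0 that stayed 0 are among them, as for cluster windows in all limma fits. Some differences of 0 or near 0 among them took either sign. The H3K27ac difference in share also counted as unchanged, but with lists of equal length it was -20.8 points instead of -40.8. With lists of equal length the change in the number of cluster windows with H3K4me3 turned to -0.5 with TGFb and to 0.5 in siPHF13+TGFb, that of H3K27ac was 0 with TGFb and turned to 0.5 in siPHF13+TGFb, and 0 windows were gained with TGFb for any mark or lost in siPHF13+TGFb for H3K4me3. Windows of 500 bp on either side left 0 gained with TGFb for H3K4me3 and H3K27me3, and 0 lost in siPHF13+TGFb for H3K4me3. A minimum −log10 q of 3 left 0 gained with TGFb for H3K4me3 and H3K27ac and 0 lost in siPHF13+TGFb for H3K4me3.

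Leaving out each library in turn put the differences in share between -34.5 and -33.8 points (H3K4me3), -45.7 and -38.9 (H3K27ac), and -15.8 and -13.3 (H3K27me3), each with an exact permutation p of 0.0625, the smallest that 5 libraries allow. Under the same omissions, windows gained with TGFb ranged from 1 to 2 for H3K4me3 and from 1 to 5 for H3K27ac, and windows lost from 0 to 2 for H3K27me3. In siPHF13+TGFb, lost windows numbered 1 to 2 (H3K4me3), 0 to 1 (H3K27ac) and 0 to 2 (H3K27me3), and gained windows numbered 0 to 3 (H3K27me3). The change in the number of windows there ran from -3.5 to 2.5 for H3K27ac and from -2 to 3 for H3K27me3. H3K27me3 over the spans changed by -1.53 to 0.159 points with TGFb and by -0.346 to 0.768 in siPHF13+TGFb. The causes were not tested beyond the omissions themselves.

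Replicate numbers were not taken to pair the samples. Deviations of same-numbered siControl and siPHF13+TGFb libraries correlated at 0.431, 0.258 and 0.216 (H3K4me3, H3K27ac, H3K27me3), but those of siControl+TGFb with either group ran from -0.287 to 0.049. With the replicate block the H3K4me3 window counts changed by 1.5 and -1.5 (exact permutation p = 0.5, the smallest for 2 pairs), and limma called 0 cluster windows for each mark and comparison, with the block or not. With the siControl+TGFb numbers crossed, a pairing chosen after seeing the data, it called 0 for H3K4me3 in both comparisons and for H3K27ac with TGFb, where alone it was run. Without read counts or signal over background, a missing peak cannot be told apart from low depth.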
